A study of Arabidopsis thaliana with 22 samples.

Results

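Roots harvested 24 h after the transfer of Arabidopsis plants to fresh nutrient solution were compared with roots of the same experiment taken at 0 h. Both harvests fell at the same clock hour, shortly after the lights came on, so that time of day did not separate them. The comparison used 10 of the 22 arrays of the series, chosen by their labels alone: 2 arrays of Fe-deficient and 2 arrays of Fe-sufficient roots at 24 h, and 3 arrays of Fe-deficient and 3 arrays of Fe-sufficient roots at 0 h. Fe-deficient plants were moved to solution without Fe and Fe-sufficient plants to complete solution. The remaining 12 arrays, taken at 1 h and 6 h, entered no test of this comparison, and give levels in between and 1 alternative fit. All plants were of the accession Landsberg erecta, were grown in hydroponic culture, had their roots washed with an EDTA solution before the transfer, and each sample was RNA from the pooled roots of several plants. Whole roots were hybridised, so that fewer cells of a type and less RNA per cell cannot be told apart. Per the study's methods, roots of 0 h were taken directly at the transfer, and only Fe-deficient batches with raised ferric reductase activity were used. Age, which was 1 day greater at 24 h, the handling and wash, which lay minutes or a day before harvest, and the time in new solution differed together between 24 h and 0 h and cannot be told apart.

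Roots that are touched, shaken, cooled or wounded take up calcium into the cytosol, and within minutes transcribe a common group of genes that includes calmodulin-like proteins, which bind this calcium, zinc-finger and WRKY transcription factors, and wall proteins. Many other transcripts follow the circadian clock, an oscillator of mutually repressing transcription factors that runs through roots as well as leaves. In Fe-deficient roots of Arabidopsis, the transcription factor FIT (named FRU on this array) and partner bHLH proteins switch on the Fe transporter IRT1 and a ferric chelate reductase, while ferritins, which store Fe, decline.

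Transcript abundance is given as the intensity of a probe set on the ATH1 array, scaled by the authors to a common trimmed mean, and differences as log2 of intensity + 1, 24 h minus 0 h. Median intensity was 183.0 to 210.2 on the 24 h arrays, against 187.1 to 199.3 on the 0 h arrays. A change was called by the study's criterion, an unadjusted p under 0.05 in limma with more than a 1.5-fold difference. This criterion does not correct for the number of probe sets, and adjusted p values are from limma with Benjamini-Hochberg adjustment over all 22746 probe sets tested. The labels call the arrays of a group biological replicates, and the study's methods describe independent experiments. Markers of other organs and cells gave no call over both media. GAPA, a chloroplast enzyme and the 1 of 7 leaf markers named here, lay at 16.5 to 67.2 at 24 h, against 30.9 to 62.6 at 0 h. It was called lower in Fe-deficient roots (-1.30) and higher in Fe-sufficient roots (0.69). The study lists GAPA among the transcripts lowered by Fe deficiency, so that it is not a neutral leaf marker. The part of leaf RNA in the results below was not tested. The root hair expansins EXPA7 and EXPA18, 2 of 5 root hair markers, summed to 374.1 to 841.4 at 24 h, against 263.1 to 765.4 at 0 h. LBD16 and LBD29, regulators of lateral root founding and 2 of 3 markers, summed to 176.8 to 274.3 at 24 h, against 156.1 to 257.8 at 0 h. The pollen transcript LAT52, 1 of 2 markers chosen as a negative check, stayed dim, at no more than 6.00 at 24 h, against 20.6 at 0 h. Endodermis, xylem, phloem, meristem and root cap markers carried no name here, and the root identity rests on few genes. The 0 h arrays with replicate number 2 stood apart in the Fe response: IRT1 lay at 3909.6 on the Fe-deficient and 3008 on the Fe-sufficient array, against 218 to 1284 on the other 0 h arrays.

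One day after transfer, more transcripts were lower than higher. Of the 22746 probe sets tested, 1031 (4.53%) were called over both media, 329 higher (1.45%) and 702 lower (3.09%) at 24 h. Many were dim: 61.2% of the calls lay below the median mean intensity of 202 units, and above it 140 were higher and 260 were lower. At an unadjusted p under 0.05 alone there were 1747 probe sets (7.68%). After adjustment 9 probe sets (0.0396%) passed, all of them lower at 24 h, 4 of them above the median, and the lowest adjusted p was 0.0161. That count was 0 when any of 7 arrays was left out, which were all 4 arrays of 24 h, the Fe-deficient 0 h replicates 1 and 2 and the Fe-sufficient 0 h replicate 2, and 56 when all 22 arrays shared one estimate of the spread. Of all probe sets, 257 (1.13%) had every 24 h array above every 0 h array and 513 (2.26%) had every 24 h array below. Of the 1031 called probe sets, 636 carried a single gene name in the annotation used here, 204 higher and 432 lower. Above the median, and with no overlap between the 24 h and 0 h arrays, 99 named genes were lower and 25 were higher. Of the 99, 75 kept their call under all 23 alternative fits, and of the 25, 8 did.

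**Figure D1:**
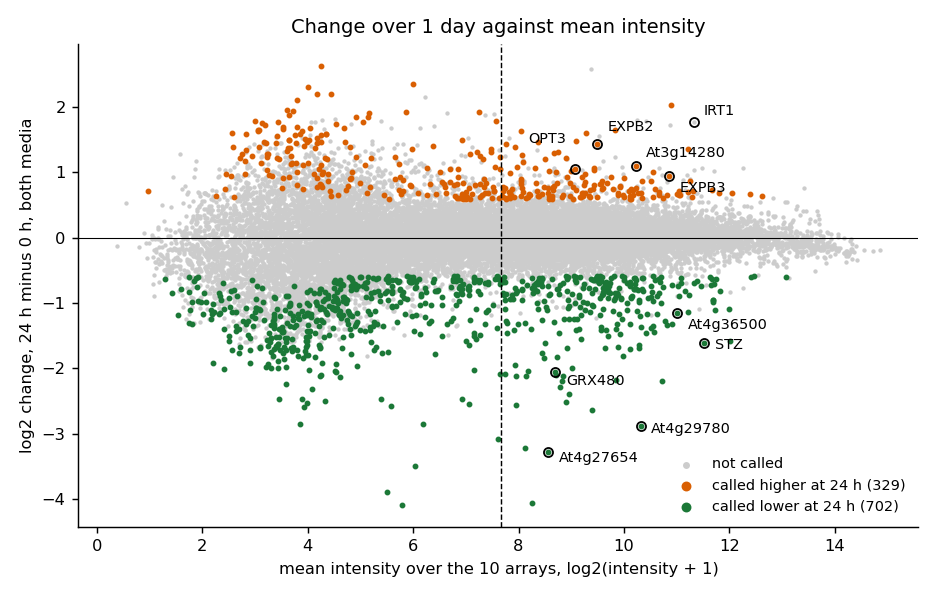
Log2 change over both media (24 h minus 0 h, y axis) against log2 of the mean intensity over the 10 arrays (x axis) for the 22746 probe sets tested, with called probe sets coloured by direction, the median intensity as a dashed line and some genes of the text circled. The 702 lower calls reach further from 0 than the 329 higher calls among bright probe sets, and above the median 260 were lower and 140 higher.

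The strongest named decreases were in genes of which most carry no symbol, and in a redox protein. Genes were named by a rule that took, among those above the median with no overlap of the arrays, 12 in each direction in order of p. At4g36500, a gene without a symbol in the annotation used here, had intensities of 1105 and 973 in Fe-deficient roots and 1373 and 1337 in Fe-sufficient roots at 24 h, against 2307, 2976 and 2660.3 in Fe-deficient roots and 3020.1, 2298 and 2595 in Fe-sufficient roots at 0 h. The 4 arrays of 24 h lay together below all 6 arrays of 0 h, with a log2 change of -1.15 (SE 0.14, adjusted p = 0.0631). GRX480, a CC-type glutaredoxin that joins salicylate and jasmonate signalling through TGA factors, had 127 and 119 in Fe-deficient roots and 153 and 156 in Fe-sufficient roots at 24 h, against 556, 795 and 513 in Fe-deficient roots and 732, 660.2 and 342 in Fe-sufficient roots at 0 h. This was a log2 change of -2.06 (SE 0.24, adjusted p = 0.0631), and the highest 24 h array (156) stood well below the lowest 0 h array (342). At4g27654 had 71.1 and 30.5 in Fe-deficient roots and 37.7 and 95.9 in Fe-sufficient roots at 24 h, against 538, 819.6 and 349 in Fe-deficient roots and 1124, 298 and 414 in Fe-sufficient roots at 0 h. It gave a log2 change of -3.29 (SE 0.49, adjusted p = 0.101), the widest change of the named genes above the median under the naming rule, and its 0 h arrays were themselves spread widely, with replicate 1 of the Fe-sufficient roots the highest. The neighbouring gene At4g27652 lay at 209.6 to 366 at 24 h, against 817 to 1957 at 0 h (-2.18). At5g52750, which stands beside At5g52760, lay at 293 to 429.6 at 24 h, against 702 to 1390.5 at 0 h (-1.51), and At5g52760 itself, chosen after its values were seen, at 123 to 142 at 24 h, against 287 to 1076 at 0 h (-2.20). In neither pair did the 24 h arrays overlap the 0 h arrays.

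The other genes of the naming rule that were lower at 24 h changed by -1.32 to -0.95. At1g05575 lay at 444 to 694 at 24 h, against 1174 to 1725 at 0 h (log2 change -1.32), and At1g19380 at 1292 to 1448 at 24 h, against 2511 to 3786 at 0 h (-1.14). At2g39650, At5g12340, At5g14700 and At5g35735 changed by -1.04 to -0.95, with adjusted p values between 0.0689 and 0.0979. All 12 genes of this group were called in Fe-deficient and in Fe-sufficient roots taken separately, and all 12 kept their call under the 23 alternative fits. The 4 probe sets above the median that passed the adjusted threshold carried no single gene name. The brightest of them, 256017_at, had intensities of 1739 to 2094 at 24 h, against 4558 to 6239 at 0 h, with a log2 change of -1.59 (SE 0.14, adjusted p = 0.0161). Another, 258377_at, lay at 198 to 237 at 24 h, against 539 to 658 at 0 h, with a log2 change of -1.46 (SE 0.12, adjusted p = 0.0161). The named genes among the 9 were dim. At1g56660 lay at 33.8 to 56.3 at 24 h, against 106 to 154 at 0 h (-1.51, adjusted p = 0.0161), and At3g18700 at 0.800 to 5.90 at 24 h, against 11.5 to 38.1 at 0 h (-2.59, adjusted p = 0.0294). These 24 h values lie near the bottom of the scale, and with log2(intensity + 32) the change of At3g18700 was -0.60 and that of At1g56660 -1.06.

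**Figure D2:**
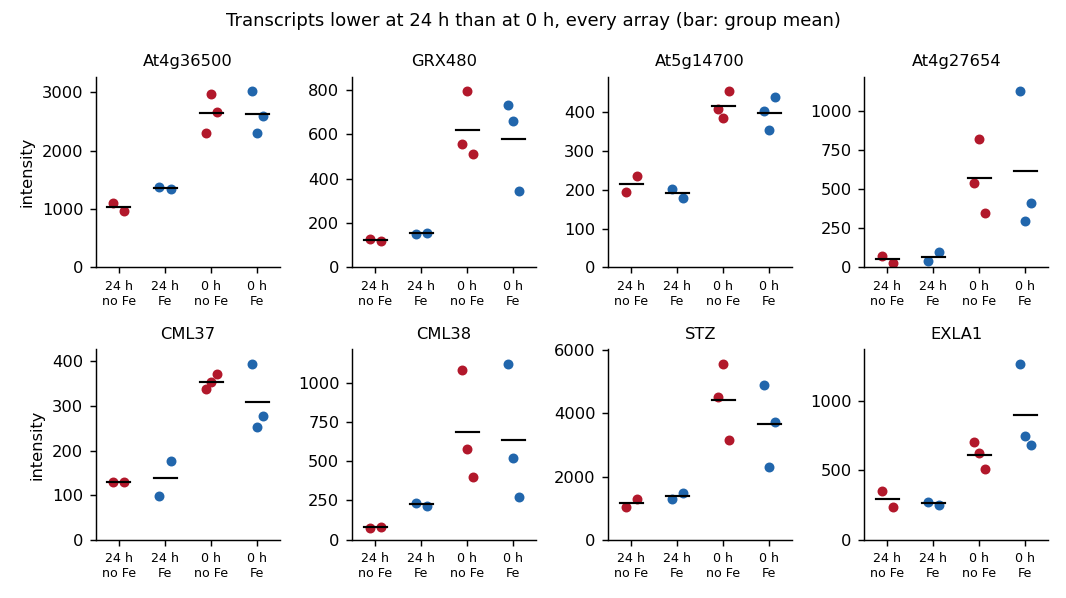
Intensity (y axis, scaled units, from 0) of genes that were lower at 24 h, one point per array, in Fe-deficient and Fe-sufficient roots at 24 h and then at 0 h, with the group mean as a bar. GRX480 lay at 119 to 156 at 24 h, against 342 to 795 at 0 h and STZ at 1045 to 1468 at 24 h, against 2318 to 5580.1 at 0 h, so that no 24 h array reached the lowest 0 h array.

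Genes known for their response to touch and wounding were lower as a group. The touch and wound list was written with earlier results of these data known, so that it is not an independent choice. Of its 26 genes, 6 were named here, and all 6 were called lower at 24 h, where 3.09% of all probe sets were. Their median log2 change was -1.46, against -0.01 over all probe sets tested. Each kept its direction in each medium, with 5 called in Fe-deficient and 4 in Fe-sufficient roots. STZ, a zinc-finger repressor induced by salt, cold and wounding, had 1045 and 1302 in Fe-deficient roots and 1299 and 1468 in Fe-sufficient roots at 24 h, against 4528, 5580.1 and 3166 in Fe-deficient roots and 4908, 2318 and 3731 in Fe-sufficient roots at 0 h. Its 24 h arrays were tightly grouped below a scattered set of 0 h arrays, with a log2 change of -1.61 (SE 0.25, adjusted p = 0.111). CML37 and CML38 are calmodulin-like proteins. CML37 lay at 98.0 to 178 at 24 h, against 252 to 395 at 0 h, with a log2 change of -1.32 (SE 0.20, adjusted p = 0.111), and CML38 at 77.8 to 236 at 24 h, against 270.1 to 1122 at 0 h, with a log2 change of -2.12 (SE 0.42, adjusted p = 0.208). At1g76640, for which the annotation gives a calmodulin-like name as well, lies beside CML38 and had 36.4 to 65.6 at 24 h, against 151 to 301 at 0 h, with a log2 change of -2.02 (SE 0.27, adjusted p = 0.0722). The groups of these 4 genes did not overlap. For the other 2 members the ranges met: WRKY53, a transcription factor of leaf senescence and defence, lay at 802 to 1064 at 24 h, against 1007 to 2358 at 0 h (-0.84, adjusted p = 0.508), and EXO, a wall-associated protein of brassinosteroid-responsive growth, at 1474 to 2357 at 24 h, against 2183 to 4503 at 0 h (-0.75, adjusted p = 0.562). None of the 6 passed the adjusted threshold. The number called was 5 or 6 without any single array.

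Several of these genes were uneven among the 0 h arrays. CML38 had 1082, 576 and 402 in Fe-deficient roots and 1122, 522 and 270.1 in Fe-sufficient roots at 0 h, and replicate 1 was the highest in each medium. At4g29780, chosen after its values were seen, had 272 and 199.6 in Fe-deficient roots and 120.5 and 323 in Fe-sufficient roots at 24 h, against 3564, 1997 and 700.1 in Fe-deficient roots and 3603, 752 and 1213 in Fe-sufficient roots at 0 h, again with replicate 1 highest at 0 h in both media, and changed by -2.89 (adjusted p = 0.231). Compared within the label numbers 1 and 2 alone, the 99 lower genes had median log2 changes of -1.14 for number 1 and -0.91 for number 2. The sign of each was fixed beforehand, because these genes were chosen for arrays that did not overlap.

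The next genes were also lower at 24 h and were chosen after their values were seen. GTR1, a transporter of glucosinolates and of jasmonate conjugates, lay at 203 to 294 at 24 h, against 327 to 975 at 0 h (-1.25). OPCL1, a peroxisomal CoA ligase of jasmonate synthesis, lay at 764 to 1078 at 24 h, against 1343 to 2241 at 0 h (-0.82). CCR2, a cinnamoyl-CoA reductase of the lignin pathway, lay at 408 to 593 at 24 h, against 709.8 to 994 at 0 h (-0.78), and BGLU46, a glucosidase that acts on monolignol glucosides, at 502 to 653 at 24 h, against 736 to 1525 at 0 h (-0.92). CSLC04, a glucan synthase of xyloglucan, lay at 1013 to 1317 at 24 h, against 1466 to 2257 at 0 h (-0.64), and PTI1-4, a protein kinase of oxidative signalling, at 576 to 675 at 24 h, against 823 to 1229.5 at 0 h (-0.69). In each of these genes the 24 h arrays stood clear of the 0 h arrays, and the adjusted p values were 0.203 to 0.349. ORA47, an AP2/ERF regulator of jasmonate synthesis, was called with overlapping arrays, at 52.6 to 194 at 24 h, against 86.6 to 519 at 0 h (-1.46, adjusted p = 0.641). The 1 measured gene of the jasmonate list lay below the median intensity, was not called and had the opposite sign. Its log2 change was 0.57 over both media, 0.99 in Fe-deficient and 0.16 in Fe-sufficient roots.

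The intermediate harvests placed most of the loss between 1 h and 6 h. These harvests fell at other clock hours, and the 1 h, 6 h and 24 h differences share the 0 h arrays, so that the levels are given side by side without a test, as means ± SD over 6 arrays at 0, 1 and 6 h and 4 arrays at 24 h. Over the 99 lower genes the median log2 difference from 0 h was -0.18 at 1 h, -0.85 at 6 h and -0.94 at 24 h. The last value is fixed by the choice of genes. The 1 h and 6 h values subtract the same 0 h arrays that entered this choice, so that they are not independent of it. At 1 h, 18 of the 99 were more than 1.5-fold below 0 h and 8 were more than 1.5-fold above, and at 6 h 78 were below and 0 were above. Over all 11372 probe sets above the median, the median difference was -0.03 at 1 h, 0.01 at 6 h and 0.01 at 24 h. The touch and wound list had medians of -0.39, -1.55 and -1.46 at the 3 times.

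The genes took different paths to the low level. Mean intensity of At4g27654 was 590.4 ± 321 at 0 h, 76.7 ± 32.6 at 1 h, 59.6 ± 20.3 at 6 h and 58.8 ± 30.4 at 24 h, so that it was already low at the first harvest. At4g29780 did the same, with 1971 ± 1333 at 0 h, 465 ± 146 at 1 h, 177 ± 60.2 at 6 h and 229 ± 88.1 at 24 h. At4g36500 instead was above its starting level at 1 h, with 2643 ± 312 at 0 h, 4050.3 ± 1502 at 1 h, 1255 ± 201 at 6 h and 1197 ± 191 at 24 h, and At5g14700 had 408 ± 36.1 at 0 h, 705 ± 398 at 1 h, 222 ± 86.9 at 6 h and 204 ± 24.1 at 24 h. CCR2 and GTR1 also peaked at 1 h. CCR2 averaged 833 ± 105 at 0 h, 2057 ± 775 at 1 h, 492 ± 99.7 at 6 h and 487 ± 92.1 at 24 h, and GTR1 averaged 655 ± 229 at 0 h, 1409 ± 1126 at 1 h, 294 ± 110.4 at 6 h and 262 ± 40.7 at 24 h. STZ lay between these patterns, with 4038 ± 1199 at 0 h, 2924 ± 1054 at 1 h, 1173 ± 219.6 at 6 h and 1279 ± 175 at 24 h. At 6 h the means of these 6 genes and of STZ lay near those at 24 h.

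**Figure D3:**
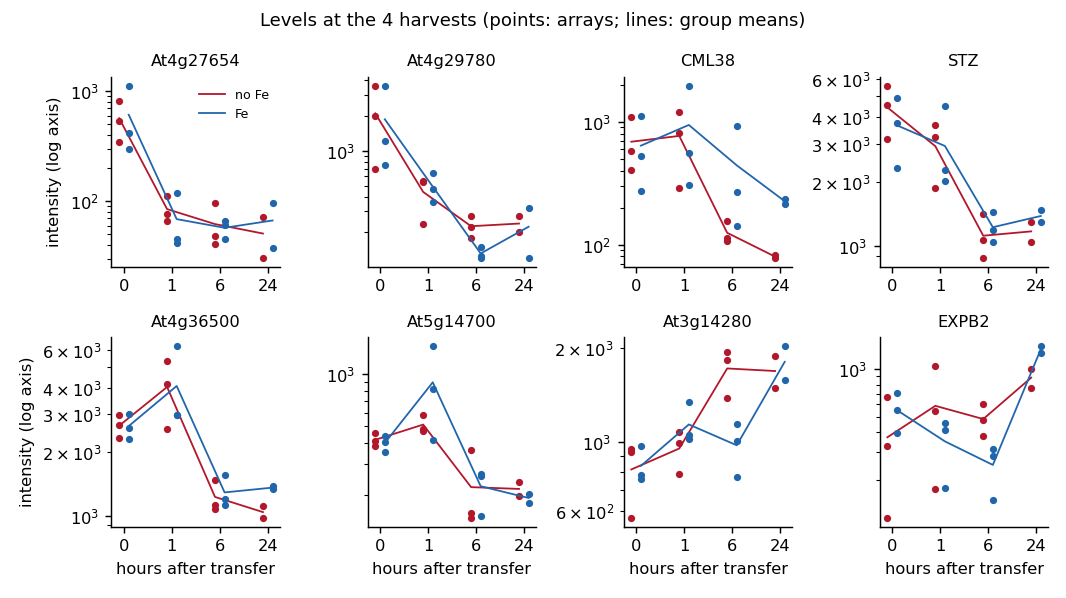
Group means as lines with every array as a point (y axis, scaled units, log scale) at 0, 1, 6 and 24 h after transfer (x axis, h, evenly spaced) in Fe-deficient and Fe-sufficient roots. At4g27654 is already low at 1 h, with a mean of 76.7, whereas At4g36500 peaks there, with a mean of 4050.3, and EXPB2 is highest at 24 h, with a mean of 1107.

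Genes that were higher at 24 h were fewer, changed less and rested more on single arrays. At3g14280 had 1884 and 1479.8 in Fe-deficient roots and 2022 and 1577 in Fe-sufficient roots at 24 h, against 949, 925 and 568 in Fe-deficient roots and 780.1, 969 and 758 in Fe-sufficient roots at 0 h. Every 24 h array exceeded every 0 h array, with a log2 change of 1.09 (SE 0.20, adjusted p = 0.17), and mean intensity was 825 ± 154 at 0 h, 1042 ± 177 at 1 h, 1343 ± 463 at 6 h and 1741 ± 255 at 24 h. At3g45210 lay at 739.9 to 942 at 24 h, against 302 to 609 at 0 h (0.97), At5g19970 at 784 to 1366 at 24 h, against 300.2 to 728 at 0 h (1.04), and At4g18630 at 414 to 534 at 24 h, against 229.7 to 346 at 0 h (0.77). These 4 of the 12 higher genes of the naming rule kept their call in all 23 alternative fits. The other 8 had log2 changes of 0.60 to 0.67, and each lost its call in at least 1 fit. The brightest of them was At4g24780, at 6333 to 8024 at 24 h, against 3639 to 5398 at 0 h (0.67), which lost its call without replicate 1 of the Fe-sufficient 24 h roots. The lowest adjusted p among all 12 was 0.17. At5g01740, chosen after its values were seen, changed more, at 676 to 1033 at 24 h, against 96.3 to 535 at 0 h (1.48, adjusted p = 0.48), and was also called in all 23 alternatives.

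Among wall-loosening proteins the expansins moved in opposite directions. Of 41 genes on the expansin and XTH list, which also holds the xyloglucan endotransglucosylases, 19 were named here. Of these 4 were called higher (1.45% of all probe sets were) and 2 lower (3.09% were), with a median of 0.27. EXPB2, a beta-expansin, had 1003 and 764 in Fe-deficient roots and 1395 and 1267 in Fe-sufficient roots at 24 h, against 331, 672 and 116 in Fe-deficient roots and 555, 707 and 396 in Fe-sufficient roots at 0 h. Its 24 h arrays all lay above the 0 h arrays, with a log2 change of 1.43 (SE 0.45, adjusted p = 0.498), although the 0 h arrays spanned from 116 to 707. EXPB3 lay at 2336 to 2829 at 24 h, against 669 to 2000.1 at 0 h (0.94) and EXPA4 at 3979 to 5447 at 24 h, against 2081 to 3718 at 0 h (0.67), again without overlap. EXPA15 was called with overlapping arrays, at 2116 to 4619.8 at 24 h, against 1543 to 2758 at 0 h (0.62). In the other direction, the expansin-like gene EXLA1 had 352 and 234 in Fe-deficient roots and 274 and 251 in Fe-sufficient roots at 24 h, against 704, 622 and 510.4 in Fe-deficient roots and 1269, 745 and 679 in Fe-sufficient roots at 0 h, with a log2 change of -1.40 (SE 0.22, adjusted p = 0.114). Its neighbour EXLA3 lay at 74.4 to 181 at 24 h, against 171 to 1262 at 0 h (-1.84, adjusted p = 0.543), where the groups overlapped. EXPB3 lost its call without replicate 2 of the Fe-deficient 24 h roots, and EXPA4 without that array or replicate 3 of either medium at 0 h. Without that array 3 of the 6 list members were still called, whereas EXPB2 and EXLA1 were called in all 23 alternatives. The xyloglucan endotransglucosylases gave no call: the 7 named here had log2 changes of -0.13 to 0.49.

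**Figure D4:**
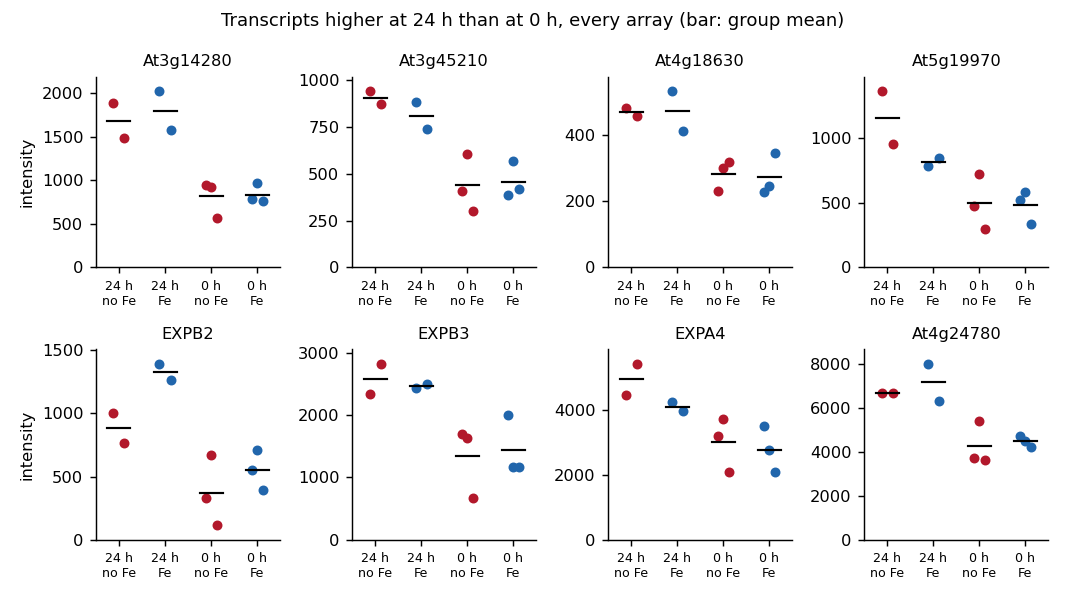
Intensity (y axis, scaled units, from 0) of genes that were higher at 24 h, one point per array, in Fe-deficient and Fe-sufficient roots at 24 h and then at 0 h, with the group mean as a bar. At3g14280 lay at 1479.8 to 2022 at 24 h, against 568 to 969 at 0 h. EXPB2 lay at 764 to 1395 at 24 h, against 116 to 707 at 0 h, with wide scatter at both times.

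Clock genes gave no call at the matched hour, as far as they were named. Of the 33 genes of the clock list, 3 were named here. GI, which controls flowering and clock period and peaks late in the day, had 1138 and 1243 in Fe-deficient roots and 1449 and 946 in Fe-sufficient roots at 24 h, against 1207, 1372 and 1169 in Fe-deficient roots and 982, 1426 and 1269 in Fe-sufficient roots at 0 h, a log2 change of -0.06 (SE 0.17), and its sign turned without replicate 2 of the Fe-sufficient roots at 24 h (0.096) or at 0 h (0.000978). Its mean was 1238 ± 158 at 0 h, 1421 ± 174 at 1 h, 1771 ± 273 at 6 h and 1194 ± 209.8 at 24 h, with the highest mean at 6 h. Hour of harvest and time since transfer differ together at 1 h and 6 h and cannot be told apart. RVE6 (At5g52660), a MYB activator of the clock, lay at 223 to 286 at 24 h, against 187 to 262 at 0 h (0.14), and FIO1, a methyltransferase that sets clock period, at 158 to 191 at 24 h, against 127 to 198 at 0 h (0.09). The central oscillator genes such as CCA1 and TOC1 carried no single name here. The 6 measured reference genes, which are used as steady standards, gave no call and ranged from -0.13 to 0.18, with a median of 0.02.

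Most other lists gave few or no calls over both media. Over all probe sets 3.09% were called lower and 1.45% higher, and with lists this small a single member is a large share. CBF and cold genes had 2 of 6 called lower, STZ and At4g33980, and sulfate starvation genes had 1 of 4, the ATP sulfurylase APS3, at 1171 to 1751 at 24 h, against 1581 to 3248 at 0 h (-0.73). Lignin and suberin genes had 1 of 2 called higher, the peroxidase At5g66390, at 423 to 554 at 24 h, against 196 to 407 at 0 h (0.63). Single dim members were called in the photosynthesis list (PRK, lower, 1 of 8), the heat shock list (ATHSP22.0, lower, 1 of 4) and the flavonoid list (At4g14090, higher, 1 of 6). Hypoxia genes had 1 of 5 called higher, At3g10040, at 44.2 and 56.6 in Fe-deficient roots and 199 and 77.3 in Fe-sufficient roots at 24 h, against 38.7 to 57.9 at 0 h, and the Zn and Cu transport list had 1 of 5, the Cu transporter COPT2, at 166 to 1909 at 24 h, against 104 to 256 at 0 h. No member was called among the measured genes of the nitrate response (4), ethylene (2), auxin (10), cytokinin (2), abscisic acid (1), sugar starvation (4), oxidative stress (2), cell cycle (3), histone (5) and root hair (3) lists. Phosphate starvation, potassium and aquaporin genes had no named member here. Dim probe sets also gave wide fitted changes, such as At2g22760, at no more than 25.7 at 24 h, against 36.8 or more at 0 h (-2.85) and At1g51810 at 16.6 to 40.2 at 24 h, against 2.70 to 17.9 at 0 h (2.19), values near the lowest intensities of the array, where the size of a change depends on the added constant.

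The change over the day was also fitted in each medium and compared between media. In Fe-deficient roots 1054 probe sets (4.63%) were called, 322 higher and 732 lower, and in Fe-sufficient roots 746 (3.28%), 264 higher (1.16%) and 482 lower (2.12%). The call was shared in direction by 35 higher and 189 lower probe sets, and 25 were called in opposite directions; whether this overlap differs from that of unrelated lists was not tested. The difference between the media was called for 499 probe sets (2.19%), of which 91.6% lay below the median intensity. In none of these 3 contrasts did limma give an adjusted p under 0.05; at an unadjusted p under 0.05 there were 1230 (5.41%) in Fe-deficient roots, 873 (3.84%) in Fe-sufficient roots and 502 (2.21%) for the difference.

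Genes of the Fe response differed between media in both directions. The Fe acquisition, Fe regulator and Fe storage lists are not independent of these data. Here 40 probe sets were named only through pairs of probe and locus printed in the study, which lists them as Fe-responsive. To the extent that list members were named in this way, their counts were fixed beforehand. The shares over all probe sets are then no neutral background. Of 13 measured Fe acquisition genes, 12 were called higher in Fe-deficient roots (1.42% of all probe sets were), 0 in Fe-sufficient roots, and 4 in the difference between media (0.818% were). Their median log2 change was 2.29 in Fe-deficient and 0.12 in Fe-sufficient roots. Of 17 probe sets of Fe regulators 11 were higher in Fe-deficient roots, 0 in Fe-sufficient roots, and 6 differed between media, with medians of 0.91 in Fe-deficient and -0.03 in Fe-sufficient roots. Over both media 7 members of each list were called higher, which averages the larger change in Fe-deficient with the smaller one in Fe-sufficient roots. Without single arrays these counts were 3 to 11 for Fe acquisition and 5 to 9 for the regulators. OPT3, an oligopeptide transporter of the phloem that takes part in Fe signalling, had 1116 and 1967 in Fe-deficient roots and 231 and 281 in Fe-sufficient roots at 24 h, against 287, 316 and 288 in Fe-deficient roots and 327, 241 and 336 in Fe-sufficient roots at 0 h. Only the Fe-deficient arrays of 24 h were raised, and the changes of 2.32 in Fe-deficient and -0.23 in Fe-sufficient roots differed by 2.54 (SE 0.39, adjusted p = 0.916). IRT1, the main root Fe transporter, had 5406 and 6469 in Fe-deficient roots and 2545 and 1558 in Fe-sufficient roots at 24 h, against 218, 3909.6 and 430.4 in Fe-deficient roots and 718, 3008 and 1284 in Fe-sufficient roots at 0 h. It lay highest in Fe-deficient roots at 24 h, but the 0 h replicates with number 2 were high in both media, and the change was 3.04 in Fe-deficient and 0.50 in Fe-sufficient roots, with a difference of 2.54 (SE 1.61). FRU changed by 1.38 in Fe-deficient and 0.24 in Fe-sufficient roots, and bHLH39, its partner, by 2.99 in Fe-deficient and 0.31 in Fe-sufficient roots. Without 1 of the arrays of the Fe-deficient roots, the count of Fe acquisition genes called there ranged from 5 to 11 of 13, with 11 without the 0 h replicate 2, and the count of regulators fell to 7 without replicate 2 of 24 h. The other bright genes named for a higher change in Fe-deficient roots were At5g05250, At1g47400, At3g58060 and GRF11. Their differences between media were 2.05, 2.67, 3.38 and 1.92, with limma adjusted p values of 0.916 or more. At5g05250 is of unknown function in the study, and At1g47400 is the Fe regulator list member IMA1. At3g58060 is a cation efflux protein and GRF11 a 14-3-3 protein.

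The plastid ferritin gene FER1 went the other way. FER1 had 1041 and 703 in Fe-deficient roots and 3244 and 2615 in Fe-sufficient roots at 24 h, against 2754, 1488 and 2426 in Fe-deficient roots and 2202, 2293 and 2755 in Fe-sufficient roots at 0 h. It was lowest in Fe-deficient roots at 24 h, with a change of -1.33 there and 0.28 in Fe-sufficient roots, a difference of -1.60 (SE 0.43, adjusted p = 1). Of 7 Fe storage genes 3 were lower in Fe-deficient roots (3.22% of all probe sets were) and 0 in Fe-sufficient roots, a count that was 1 without replicate 2 of the Fe-deficient 24 h roots and 5 without replicate 1 of the Fe-deficient 0 h roots. By contrast, no member of the touch and wound list and no member of the expansin and XTH list was called in the difference between media, which does not show that their changes were equal: the difference had a median of -0.24 over the touch and wound list and a range of -1.71 to 0.16.

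**Figure D5:**
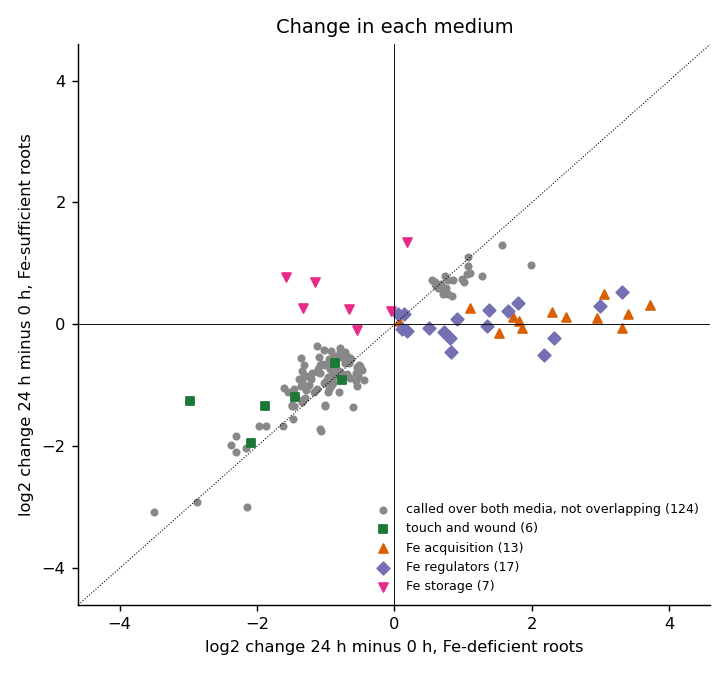
Log2 change, 24 h minus 0 h, in Fe-deficient roots (x axis) and in Fe-sufficient roots (y axis) for the 124 named genes called over both media without overlap of the arrays (grey) and for members of the touch and wound, Fe acquisition, Fe regulator and Fe storage lists (colours), with the line of equal change dotted. Touch and wound genes lie below 0 on both axes, and Fe acquisition genes lie to the right near 0 on the Fe-sufficient axis, with medians of 2.29 in Fe-deficient and 0.12 in Fe-sufficient roots.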

How the data were processed

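RNA from whole roots was measured on Affymetrix ATH1 arrays, 22 in all. The authors deposited 1 intensity value per probe set and array, after scaling each array to a common trimmed mean, and this linear intensity was used as deposited. Control probe sets (64) were left out, and 22746 were tested. Names came from the platform annotation given for this work, updated through RefSeq: 13553 probe sets had a single gene and 9193 were not named here. log2(intensity + 1) was fitted in limma 3.58.1 (R 4.3.3) with 4 groups of time and medium over 10 arrays (6 residual and 1.81 prior degrees of freedom), and contrasts were 24 h minus 0 h over both media, in each medium, and their difference. The study's criterion, more than 1.5-fold with p under 0.05 before adjustment, gave the calls, with Benjamini-Hochberg adjustment as a second rule. The fit was tested on simulated data.

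Genes were named by a rule: 12 in each direction above the median intensity of 202, called and with arrays that did not overlap, in order of p; 4 in each direction at or below it; up to 4 called members of each of 29 lists, of which 26 had a measured member; 5 in each direction by the difference between media; the clock list; and IRT1, FRO3, FER1 and OPT3. The comparison, the lists and the rule were chosen with earlier results of these data known. Alternatives changed the pseudocount, filter, scaling, variance trend, covariates, blocks, arrays in the fit and arrays left out. No promoter sequence was used here, so that promoter motifs were not searched. Array values carry no counts, and precision is limited by the number of arrays, 2 per medium at 24 h.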

Additional observations from a re-analysis of the deposited data

Results flagged for a closer look

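The change from 0 h to 24 h differed between the media for 24 of the named, listed or otherwise examined genes by the test of the difference itself (limma, study criterion), although none of them had an adjusted p under 0.05 and the call for the difference took in 2.19% of all probe sets. The values below are log2 differences, the change in Fe-deficient minus the change in Fe-sufficient roots.

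Genes of the Fe acquisition and Fe regulator lists, and At5g05250, had positive differences. The difference was 2.54 for OPT3, 2.67 for At1g47400, 2.05 for At5g05250, 1.92 for GRF11, 1.44 for ORG1, 1.28 for the bHLH factor PYE and 2.38 for the cytochrome P450 gene CYP71B5, and these 7 kept their call in all 20 alternative fits of the difference. It was 3.38 for At3g58060 and 3.23 for the transcription factor MYB72, which each lost the call in 2 of the 20, without replicate 1 of the Fe-sufficient or of the Fe-deficient 24 h roots. FRU, with 1.15, lost it in 9 of 20 and ranged from 0.64 to 1.65 without single arrays. BTS, an E3 ligase that restrains the Fe response, differed by 0.85 and lost the call in 10 of 20.

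Genes of the Fe storage list had negative differences of -1.60 for FER1, -2.35 for At1g21140 and -1.86 for At3g25190, of which RefSeq names the last 2 vacuolar iron transporter-like. At1g21140 lost its call without replicate 1 of the Fe-sufficient 24 h roots (-1.76). At3g25190 lay at 650.3 and 388 in Fe-deficient roots and 1458 and 1361.5 in Fe-sufficient roots at 24 h, against 880.5 to 1553 in Fe-deficient roots and 647 to 1135 in Fe-sufficient roots at 0 h. ZIP3, a Zn transporter, differed by -1.56, with 4092 and 2655 in Fe-deficient roots and 10443.5 and 7998 in Fe-sufficient roots at 24 h, against 6352 to 8215.5 in Fe-deficient roots and 5593 to 7681 in Fe-sufficient roots at 0 h.

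Of the 10 arrays compared, replicate 1 of the Fe-sufficient 24 h roots was the highest for At4g10270, At1g33055 and At3g10040, and without it each of the 3 lost its call, with differences of -1.21, -1.86 and -0.81. They lost it in 3, 6 and 3 of the 20 alternatives. At4g10270 lay at 147 and 102 in Fe-deficient roots and 1312 and 344 in Fe-sufficient roots at 24 h, against 103 to 206 at 0 h, a difference of -2.17. At1g33055 lay at 194 and 112 in Fe-deficient roots and 881 and 253 in Fe-sufficient roots at 24 h, against 41.3 to 319 at 0 h, a difference of -2.76. At3g10040, named hypoxia response attenuator in RefSeq, lay at 44.2 and 56.6 in Fe-deficient roots and 198.7 and 77.3 in Fe-sufficient roots at 24 h, a difference of -1.49. Outside the comparison these genes were higher still on 2 Fe-sufficient arrays: At4g10270 lay at 4777 on replicate 2 of 1 h and at 3898 on replicate 1 of 6 h, At1g33055 at 2446 and 3302, and At3g10040 at 1229.6 and 1131 on the same arrays. Replicate 2 of the Fe-deficient 1 h roots was also above the 24 h arrays for At4g10270, with 1503, and for At3g10040, with 289.6. The hypoxia list member At3g10020 lay at 426 and 435 in Fe-deficient roots and at 403 and 254 in Fe-sufficient roots at 24 h. At 0 h it lay at 1922 on replicate 1 of the Fe-deficient roots and at 200.6 to 512.7 on the other arrays.

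The remaining differences lay among probe sets below the median intensity. They were -2.67 for the small heat shock protein ATHSP22.0, -2.40 for the signal peptide gene RALFL28 and -2.08 for At3g18700, which lost their calls in 5, 9 and 3 of 19 alternatives. The chloroplast genes GAPA and PSBW differed by -1.99 and -1.73, and PSBW lost its call in 9 of 19. At1g56660, which was lower at 24 h in each medium, differed by 0.81 and lost its call in 3 of 20.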

How the results depend on the processing

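The count of calls over both media (1031) was 906 to 1299 without single arrays, 555 with log2(intensity + 32) and 596 with probe sets of mean intensity 64 or more. The count by adjusted p (9) was 0 to 8 without single arrays, 0 with the replicate block and with harvest means, 31 with log2(intensity + 16), 37 with + 32, 33 in an additive model, 47 with the intensity filter, 56 with all 22 arrays and 60 with a variance trend. In Fe-deficient roots the filter gave 616 calls in place of 1054, and in Fe-sufficient roots it gave 419 in place of 746, against 450 with + 32. The trend gave 8 probe sets by adjusted p in Fe-deficient and 2 in Fe-sufficient roots, and the filter gave 1 in Fe-sufficient roots. The difference between media had 332 calls with + 32 and 130 with the filter in place of 499. Quantile normalization moved the split of calls to 402 higher and 584 lower in Fe-deficient roots (322 and 732 as scaled) and to 242 and 232 for the difference between media (186 and 313 as scaled). It moved the median of all probe sets only to 0.01. The cause of these changes was not tested.

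By adjusted p, 0 members of any list were called. Without single arrays, members called over both media were 3 to 11 for Fe acquisition and 3 to 6 for the expansin and XTH list, and in Fe-deficient roots 5 to 12 for Fe acquisition, 7 to 11 for Fe regulators, 1 to 5 for Fe storage and 0 to 5 for the expansin and XTH list. List medians ranged from -0.26 to 0.34 for hypoxia, where the sign turned without the Fe-sufficient 0 h replicate 2 (0.10), the Fe-deficient 0 h replicate 1 (0.34) or the Fe-sufficient 24 h replicate 2 (0.079), from 0.090 to 0.53 for photosynthesis, from -0.040 to 0.20 for histones, and from -0.60 to 0.0020 for CBF and cold genes, positive only without the Fe-deficient 24 h replicate 2. The change of GI ranged from -0.21 to 0.096 without single arrays, and turned to 0.096 without the Fe-sufficient 24 h replicate 2 and to 0.000978 without the Fe-sufficient 0 h replicate 2. Where a 24 h group was left with 1 array, that array was assumed to vary like the other groups.

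The labels share replicate numbers between media and times. Same-numbered arrays of 0 h deviated together across media (r over probe sets of 0.76, 0.42 and 0.68), and at 24 h they deviated oppositely (-0.81), so that the numbers do not pair the samples throughout. With the replicate block the counts were 958 over both media (653 of them shared with the 1031), 1051 in Fe-deficient roots, 846 in Fe-sufficient roots and 603 for the difference. With time and number as a random block they were 924, 1067, 743 and 610. That block fitted 1 correlation (0.11) to pairs that deviated together at 0 h and oppositely at 24 h, so it cannot describe both. The main fit takes the 10 arrays as independent. Crossing the numbers at 24 h, an alternative added after seeing the data, gave 1132, 1348, 1030 and 792 calls, and 13, 0, 0 and 1 by adjusted p. Array weights, also added then, gave 1125 calls over both media and 13 by adjusted p.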
